A study of Drosophila melanogaster with 16 samples.

Results

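The Brahma complex is the SWI/SNF chromatin remodeller of *Drosophila melanogaster*, a multi-subunit machine that uses ATP to slide or evict nucleosomes and so opens regulatory DNA to transcription factors. A common core, built on the ATPase Brahma, occurs in a BAP form that carries the ARID protein Osa and in a PBAP form that carries Bap170 and Polybromo in its place. The complex belongs to the trithorax group, which keeps developmental genes active, and in the larval brain it is known for keeping the progeny of type II neuroblasts, the neural stem cells that make intermediate progenitors, from reverting to a stem cell state. The genes described here were the 9 with the symbols *brm*, *mor*, *Snr1*, *Bap55*, *Bap60*, *Bap111*, *osa*, *Bap170* and *polybromo*. They are 9 of the 12984 genes with a row in either deposited table, and all 9 had a row in both, that of the brain with the ring gland (BRGC, 9731 genes) and that of the body (12509 genes).

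RNA was sequenced from wandering L3 larvae (the last larval stage, shortly before pupariation) of 2 genotypes, with 4 biological replicates, 1 library each, for each combination of genotype and tissue and 16 in all. The *dfr14* larvae were homozygous for a short CRISPR deletion behind the first stop codon of *dfr* (also *vvl*), a POU transcription factor gene, which leaves the short protein Dfr-S and removes Dfr-L, the form made by stop codon readthrough. The authors also report a raised Dfr-S level and delayed pupariation in this mutant. Larvae were taken by stage, and the age of each genotype at sampling is not stated. The control larvae were w1118, the labels give w[1118] as the background strain of every sample, and none was treated. BRGCs and bodies came from different larvae, and salivary glands and mouth hooks, like the BRGC, had been removed from the bodies. The *dfr14* line had at that time been outcrossed to a w;; MKRS/TM6B balancer stock only, so the allele and other differences between the lines cannot be told apart, and neither the labels nor the methods state the sex of the larvae. The genotype tag of the sample records disagreed with the titles, naming all BRGC samples mutant and all body samples wild-type, and groups here follow the titles.

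Library totals lay between 19.4 and 30.1 M reads (M, 1000000) in the BRGC and between 17.1 and 27.4 M in the body. All 7 neuronal markers were measured in both tissues, and summed to 192 to 248 counts per 1000000 reads (CPM) in *dfr14* bodies and 159 to 228 CPM in control bodies, and to 1020 to 1930 CPM in *dfr14* BRGCs and 1260 to 1710 CPM in control BRGCs. Most of the body sum came from *Syt1*, with a mean of 192 CPM in *dfr14* and 147 CPM in control. In the body *nSyb*, *brp*, *Rdl*, *VAChT* and *VGlut* averaged 1.11 to 4.65 CPM in *dfr14* and 1.43 to 8.23 CPM in control. Library 4 of the control bodies stood apart, with 1685 genes without a read (32 to 189 in the other 7 body libraries) and 24.9 CPM of *roX1*, a male-specific RNA (325 to 645 CPM in the other 7). The body results are therefore given with and without it. In the BRGC the share of reads from mitochondrial genes was 6.72 to 12.68% in *dfr14* and 2.09 to 4.45% in control. The edited gene itself had 100, 90.5, 110 and 116 CPM of *vvl* in *dfr14* BRGCs and 63.1, 63.9, 64.3 and 68.4 CPM in control BRGCs, a log2 fold change of 0.68 ± 0.09 (SE, adjusted p = 7.69e-04, limma). A deletion this short leaves the transcript in place, so this level does not check the labels.

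The first comparison asked whether transcripts of the Brahma complex differed between *dfr14* and control BRGCs. All 9 members had a negative log2 fold change, and 6 of them were lower in *dfr14* past the test. By their log2 fold changes *Bap111* stood at 64.1% of control, and *Bap170*, *Bap55*, *Bap60*, *brm* and *mor* stood at 77.2 to 80.7%. None was higher, and *Snr1*, *polybromo* and *osa* did not pass. The number called lower was 3 without *dfr14* library 4, and 0 with the level of the male-specific *roX* RNAs as a covariate. For comparison, 5.9% of all 9731 genes were lower and 10.1% higher by the same test (limma on the deposited log2 values, adjusted p under 0.05 over all genes), and 5.32% were lower among the 2652 genes expressed at or above the level of the lowest member. The median log2 fold change was -0.36 over the 9 members and -0.02 over all genes, of which 52.1% had a negative value. In 7 of the 9 members each *dfr14* library lay below each control library, an arrangement that 9.79% of all genes showed. In bulk tissue, fewer cells of a type and less RNA per cell cannot be told apart.

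The ATPase gene *brm* (3L, 15970082 to 15982869, minus strand, in the Ensembl release 115 annotation of BDGP6) had 353, 298, 334 and 358 CPM in the *dfr14* BRGCs, against 429, 418, 430 and 424 CPM in the controls. The control libraries were nearly level, with a coefficient of variation of 1.33%, and the highest *dfr14* library stayed below the lowest of them. The log2 fold change was -0.34 ± 0.08 (SE, 95% interval -0.51 to -0.18, adjusted p = 0.014). The scaffold gene *mor* (Moira, 3R, 15968134 to 15972913, minus strand), whose product holds the core together, had 423, 388, 351 and 404 CPM in *dfr14* and 486, 486, 474 and 488 CPM in control. Again the genotypes did not overlap, and *dfr14* library 3 was the lowest of the 8. The log2 fold change of *mor* was -0.31 ± 0.07 (SE, 95% interval -0.48 to -0.14, adjusted p = 0.022), and the call was lost without *dfr14* library 4 (adjusted p = 0.0547) or without control library 4 (0.0651).

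**Figure D1:**
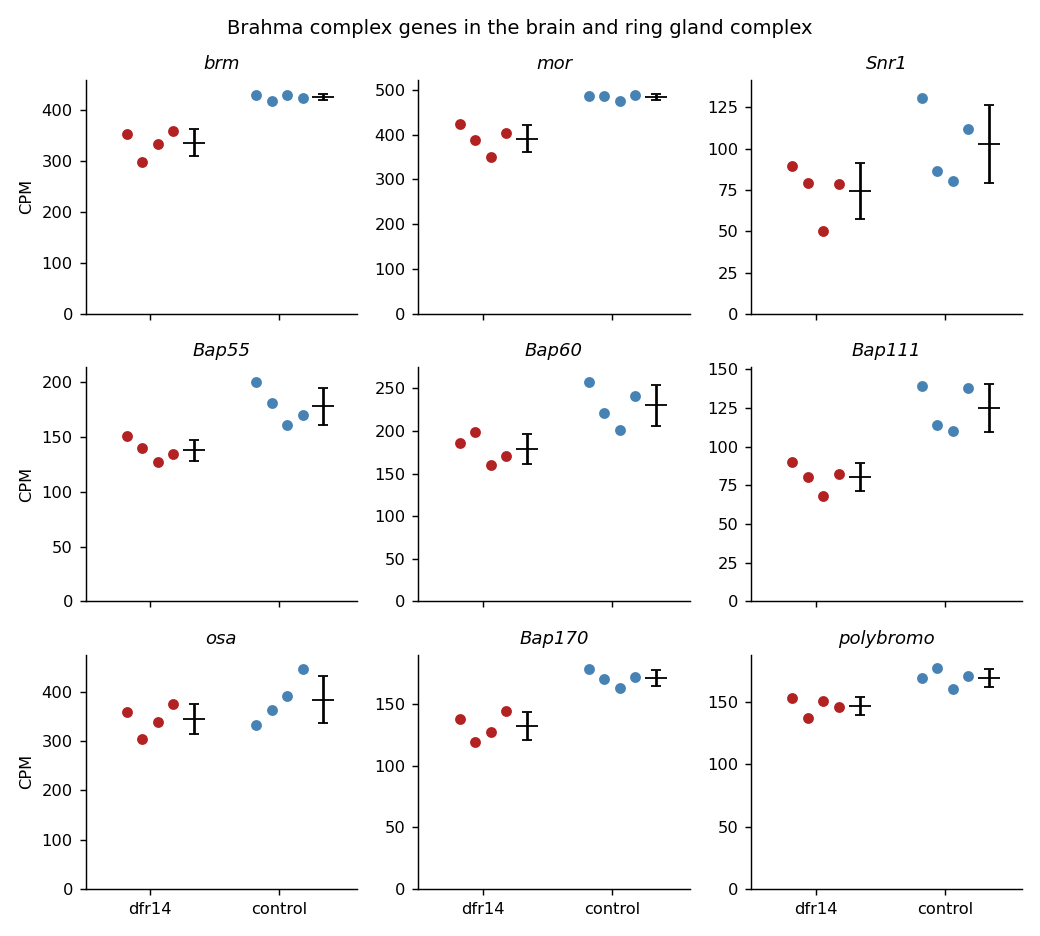
CPM of each member in the BRGC, with *dfr14* libraries on the left and control libraries on the right of each panel. Points are single libraries in the order of the table, and the bar beside them is the mean with its SD (n = 4 per genotype). In 7 panels the genotypes are separate, and in *Snr1* and *osa* they overlap.

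Among the smaller core subunits, *Bap111* (X, 9149309 to 9151976, plus strand), which encodes the HMG-box DNA-binding subunit, changed the most of the 9. It had 89.7, 80.6, 68.1 and 82.3 CPM in *dfr14* and 139, 114, 110 and 138 CPM in control, so that a wide gap separated the genotypes. The log2 fold change was -0.64 ± 0.11 (SE, 95% interval -0.89 to -0.39, adjusted p = 0.00445), which placed *Bap111* at position 436 of the 9731 genes ordered by p. The gene *Bap55* (2R, 17429353 to 17430963, minus strand), for an actin-related protein, had 151, 140, 127 and 135 CPM in *dfr14* and 200, 181, 161 and 170 CPM in control. No library of one genotype reached into the range of the other. The log2 fold change of *Bap55* was -0.36 ± 0.09 (SE, adjusted p = 0.0192), and without *dfr14* library 4 the adjusted p was 0.0611.

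For *Bap60* (X, 13157445 to 13159508, minus strand), the BAF60-type subunit that links the complex to transcription factors, the *dfr14* libraries had 186, 199, 160 and 171 CPM and the controls 257, 221, 201 and 241 CPM. Here the gap was narrow, 199 CPM in the highest *dfr14* library against 201 CPM in the lowest control. Its log2 fold change was -0.36 ± 0.10 (SE, adjusted p = 0.0359), and this call rested on single libraries, since it was lost without *dfr14* library 1, 3 or 4 or control library 1, 2 or 4 (adjusted p between 0.0566 and 0.102). *Snr1* (3R, 5470926 to 5472754, plus strand), the SNF5-type core subunit, had 89.7, 79.0, 50.5 and 78.8 CPM in *dfr14* and 131, 86.3, 80.7 and 112 CPM in control. The ranges overlapped through *dfr14* library 1, and *dfr14* library 3 was far below the rest. The log2 fold change of *Snr1* was -0.47 ± 0.20 (SE, 95% interval -0.91 to -0.02), which did not pass after adjustment (adjusted p = 0.149). Without *dfr14* library 3 it was -0.29.

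The signature subunits of the 2 forms were read next. *Bap170* (2R, 6636512 to 6642358, plus strand), the ARID2-type subunit of PBAP, had 138, 119, 127 and 144 CPM in *dfr14* and 178, 170, 163 and 172 CPM in control. The 4 control libraries were all above the 4 *dfr14* libraries, with a log2 fold change of -0.37 ± 0.07 (SE, 95% interval -0.54 to -0.21, adjusted p = 0.00962). *Polybromo* (3R, 24799967 to 24805259, minus strand), the PBAP subunit with a row of bromodomains, had 153, 137, 151 and 146 CPM in *dfr14* and 169, 177, 160 and 171 CPM in control. These ranges were separate too, but the difference of -0.21 ± 0.07 on the log2 scale (SE, 95% interval -0.35 to -0.06) missed the threshold (adjusted p = 0.0619). With library size in place of TMM scaling *polybromo* was called lower (adjusted p = 0.0158). *Osa* (3R, 17687818 to 17718350, minus strand), the ARID1-type subunit that marks BAP, had 359, 304, 339 and 376 CPM in *dfr14* and 333, 364, 392 and 446 CPM in control. The genotypes overlapped widely, and the log2 fold change of -0.15 ± 0.10 (SE, 95% interval -0.38 to 0.08) did not pass (adjusted p = 0.35). It was -0.08 without control library 4 and -0.22 without control library 1.

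The balance between the forms was described by log2 ratios of CPM within a library. The ratio of *osa* to *Bap170* was 1.38, 1.35, 1.42 and 1.38 in *dfr14* and 0.91, 1.10, 1.27 and 1.37 in control. The *dfr14* libraries were close together and above the first 3 control libraries, with control library 4 among them and a mean difference of 0.22. With *polybromo*, the other PBAP subunit, the ratio of *osa* was 1.23 ± 0.09 in *dfr14* and 1.18 ± 0.19 in control (SD, n = 4), a mean difference of 0.05. That of *Bap170* to *polybromo* differed by -0.17. The ratio of *osa* to *brm* differed by 0.19 and that of *Bap111* to *brm* by -0.30 between the genotypes. In every pair computed for the BRGC the genotypes overlapped. None of these ratios was tested.

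Several other measures moved with the genotype in the BRGC. Summed over *roX1* and *roX2*, the male-specific RNAs that coat the X chromosome, the level was 908 to 2170 CPM in *dfr14* and 551 to 1020 CPM in control, and both genes were called higher. With the mean log2 level of the 2 *roX* genes as a covariate, none of the 9 members was called. In that fit the log2 fold changes of the 6 were -0.49 for *brm* (adjusted p = 0.103), -0.35 for *mor* (0.288), -0.44 for *Bap55* (0.229), -0.22 for *Bap60* (0.626), -0.58 for *Bap111* (0.223) and -0.50 for *Bap170* (0.106), and the calls over all genes went down to 169, against 1554 without the covariate. The mean *roX* level on the log2 scale was 8.63, 7.39, 8.24 and 8.26 in the *dfr14* libraries and 7.11, 7.41, 7.03 and 6.48 in the controls. In the *dfr14* libraries, in the same order, 7, 9, 8 and 8 members were below every control library. This count per library was not made over all genes, so it has no share to be set against. *RoX* level and genotype largely went together, so their parts in the change of the members cannot be told apart. *Bap60* and *Bap111* are X-linked, and the median log2 fold change over 1583 X-linked genes was -0.08, against -0.01 over 7876 genes of the autosomal arms.

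Markers of cell types in the BRGC were counted in the same fit. Of 6 neuroblast markers 5 were lower in *dfr14* (*mira*, *ase*, *wor*, *dpn* and *insc*) and none was higher, with a summed level of 876 to 1270 CPM in *dfr14* and 992 to 1750 CPM in control, most of it from *pros*, which did not pass. Of 8 markers of proliferating cells only *CycE* passed, lower in *dfr14*, though all 8 were negative (summed level 1310 to 1410 CPM in *dfr14* and 1280 to 1750 CPM in control). Of 7 ring gland markers 4 were lower (*sad*, *spok*, *dib* and *nvd*), and 3 were called with voom weights. The 7 summed to 275 to 357 CPM in *dfr14* and 435 to 537 CPM in control. *Phm* was negative (log2 fold change -0.48, adjusted p = 0.169), while *jhamt* (0.31, adjusted p = 0.254) and *Akh* (0.49, adjusted p = 0.13) were positive, and none of these passed. None of the 7 neuronal markers was called by limma with its trend or with voom weights, and none had an unadjusted p under 0.05. Glia had 1 of 6 markers lower (*gcm*), imaginal discs 1 of 6 lower (*ap*), hemocytes 2 of 5 higher (*NimC1* and *He*) and muscle 1 of 5 higher (*TpnC73F*). None of 4 fat body markers was called, but their sum was uneven, at 66.2 to 314 CPM in *dfr14* and 41 to 3820 CPM in control. Control *Lsp1beta* averaged 905 ± 1690 CPM (SD) and reached 3440 CPM. The part of these shifts in the change of the Brahma complex was not tested. With the mitochondrial transcripts left out of the library totals, 6 members were again called lower.

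**Figure D2:**
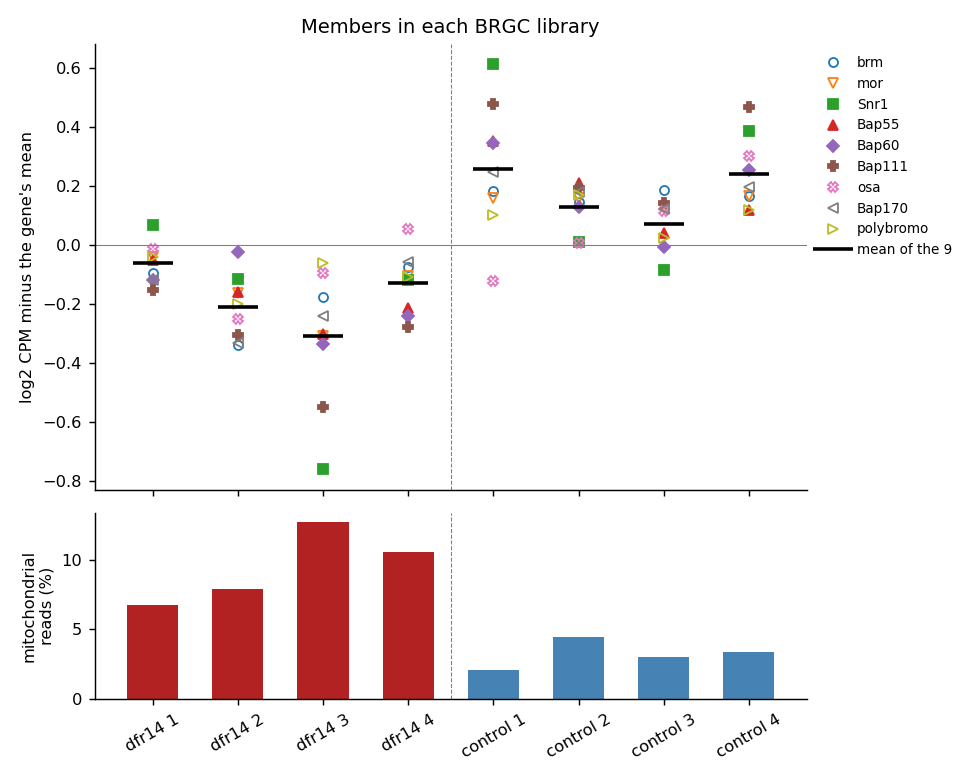
Upper panel, log2 CPM of each member in each BRGC library minus that gene's mean over the 8 libraries, with the mean of the 9 as a black bar; filled symbols are the members with exons of under 3000 bases in total. Lower panel, percent of reads from mitochondrial genes in the same libraries. The mean of the 9 is below zero in the 4 *dfr14* libraries and above zero in the 4 controls, and *dfr14* library 3 is lowest.

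Within a genotype many of the members varied together in the BRGC. Their mean deviation was -0.06, -0.21, -0.31 and -0.13 in the *dfr14* libraries and 0.26, 0.13, 0.07 and 0.24 in the controls. In the same order the mitochondrial share was 6.72, 7.87, 12.68 and 10.53% in *dfr14* and 2.09, 4.45, 3.05 and 3.39% in control. The lowest library, *dfr14* library 3, thus had the largest share and the highest, control library 1, the smallest. The libraries between them did not keep that order throughout. Without *dfr14* library 3 there were still 5 members called lower. After each genotype's mean was taken out, 31 of the 36 pairs of members correlated positively over the 8 libraries, with a median Pearson r of 0.41, and these values share the libraries and their scaling. The highest were *Snr1* with *Bap111* (r = 0.97), *Snr1* with *Bap60* (0.86), *brm* with *Bap170* (0.85) and *Bap60* with *Bap111* (0.81). The 5 negative pairs were *osa* with *Bap55* (-0.46), *brm* with *Bap60* (-0.36), *osa* with *Bap60* (-0.35), *Bap60* with *polybromo* (-0.08) and *osa* with *Snr1* (-0.04). In the body 18 of the 36 pairs were positive, with a median r of -0.03. Pairs of other genes were not computed, so whether the members went together more than other genes was not tested.

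The grouping in the BRGC ran partly along summed exon length, a split made after the values were seen. This length joins the exons of all annotated transcripts of a gene, so it can exceed that of any 1 transcript. The 4 members with summed exons of 1335 to 2668 bases (*Snr1*, *Bap55*, *Bap60* and *Bap111*) correlated with each other at 0.70 to 0.97 and had log2 fold changes of -0.64 to -0.36. The 5 with 3983 to 10723 bases (*brm*, *mor*, *osa*, *Bap170* and *polybromo*) correlated at 0.16 to 0.85 and had log2 fold changes of -0.37 to -0.15, though *mor* also went with the shorter 4 (r of 0.47 with *Bap60* to 0.77 with *Snr1*). Over all genes of the BRGC table the median log2 fold change was 0.01 for exon lengths under 1000 bases (1464 genes), -0.05 from 1000 to under 2000 (2966 genes), -0.03 from 2000 to under 3000 (1969 genes), -0.01 from 3000 to under 6000 (2239 genes) and 0.04 from 6000 (935 genes). The share called lower in these bins was 4.3, 6.27, 7.57, 6.07 and 3.1%, in the same order. No member had under 1000 bases. The part of length in the change of the members was not tested.

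The 5 genes most like the 9 members over the 8 BRGC libraries, among 9151 genes with a mean of at least 1 CPM, were *Srp54* (r = 0.994 with the mean deviation of the members), *pzg* (0.992), *Hey* (0.991), *NELF-B* (0.990) and *Traf4* (0.988). *Pzg* encodes a chromatin protein that works with a nucleosome remodeller, *Hey* a transcriptional repressor of the Notch pathway, and *NELF-B* a subunit of the negative elongation factor that holds RNA polymerase II near promoters. *Hey* averaged 5.07 ± 1.27 CPM in *dfr14* and 10.4 ± 2.59 CPM in control (SD, n = 4 each), and *pzg* 417 ± 25.6 CPM in *dfr14* and 554 ± 35 CPM in control. Since the correlation was taken over both genotypes, it ranks mainly genes that differ between them.

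Of the 7 subunits that join SWI/SNF complexes but are not among the 9, 1 was lower and none higher, with a median log2 fold change of -0.04. The one that passed was *CG7154*, a bromodomain gene of the BRD7 and BRD9 type, at 135 ± 3.32 CPM in *dfr14* and 160 ± 6.7 CPM in control (log2 fold change -0.24, adjusted p = 0.0273). The PBAP subunit *e(y)3* had 170 ± 13.9 CPM in *dfr14* and 198 ± 29.8 CPM in control, with overlapping libraries (log2 fold change -0.21, adjusted p = 0.231). The log2 fold changes of *CG10555* (-0.24, adjusted p = 0.0888), *BCL7-like* (-0.04) and *CG11873* (-0.02) were negative and those of *d4* (0.08) and *tth* (0.24, adjusted p = 0.133), both DPF-type zinc finger genes, positive, and none of these 5 passed.

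Other remodellers were counted in the same way. Of 8 ISWI genes 2 were lower, the histone-fold gene *Chrac-16* (24.2 ± 5.66 CPM in *dfr14* and 39.7 ± 4.37 CPM in control) and the histone chaperone gene *Caf1-55* (272 ± 22.6 CPM in *dfr14* and 359 ± 34.3 CPM in control), with a median of -0.25 over the list. *Iswi*, the ATPase of that family, had a log2 fold change of -0.29 and just missed the threshold (adjusted p = 0.0523). Of 9 CHD and NuRD genes 2 were lower, the deacetylase gene *HDAC1* (345 ± 18.7 CPM in *dfr14* and 451 ± 36.3 CPM in control) and the ATPase gene *Mi-2* (536 ± 59.4 CPM in *dfr14* and 699 ± 30.9 CPM in control), and the median was -0.10. In the INO80 and Tip60/Domino complexes 2 of 18 were lower, *MRG15* and *Arp5*, while 17 of the 18 log2 fold changes were negative (median -0.23). None of these 35 genes was called higher. The share called lower was thus 6 of 9 in the Brahma complex and 6 of 35 in these 3 lists together, a difference that was not tested.

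Among 20 trithorax group genes outside the complex 3 were lower (*tara*, *Lpt* and *ash2*) and 1 was higher (*Set1*, a histone H3 lysine 4 methyltransferase), with a median of -0.13. With voom weights 3 of the 20 were called. *Set1* averaged 256 ± 39.4 CPM in *dfr14* and 194 ± 18.6 CPM in control (adjusted p = 0.0497). Of 7 genes of the type II neuroblast lineage that were listed as tied to Brahma or Osa, 5 were lower and none was higher (median -0.59). They included *erm*, which keeps intermediate progenitors from reverting, at 17.7 ± 2.75 CPM in *dfr14* and 34.7 ± 4.8 CPM in control (log2 fold change -0.97, adjusted p = 0.00139), *ase*, a proneural gene, at 34.1 ± 2.65 CPM in *dfr14* and 50 ± 5.18 CPM in control, and *wor*, a Snail-family neuroblast gene, at 24.3 ± 5.57 CPM in *dfr14* and 47.9 ± 11.2 CPM in control. *Ham*, a target through which Osa limits these progenitors, had a log2 fold change of -0.22 and did not pass (adjusted p = 0.194). The genes *dpn*, *ase* and *wor* stand in the neuroblast marker list as well. Over all genes 5.9% were called lower, and a tie of these lineage genes to the members was not tested here.

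The second comparison asked the same of the body. None of the 9 members was called in either direction in *dfr14* bodies by limma, whether with its trend or with voom weights, and none had an unadjusted p under 0.05. Of all 12509 genes, 0.328% were lower and 1.09% higher, so few calls were made in this tissue at all. The log2 fold changes of the members lay between -0.07 and 0.25, with a median of 0.05, against 0.12 over all genes. The genotypes overlapped in all 9, where 2.53% of all genes had each *dfr14* library below each control library. The 95% intervals reached from -0.47 at the lowest to 0.61 at the highest. For 3 members, *brm*, *Bap60* and *polybromo*, the body interval held the log2 fold change of the BRGC, and for the other 6 it did not. This reading used TMM scaling and left out the error of the BRGC value, so it is no test of a difference between tissues.

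**Figure D3:**
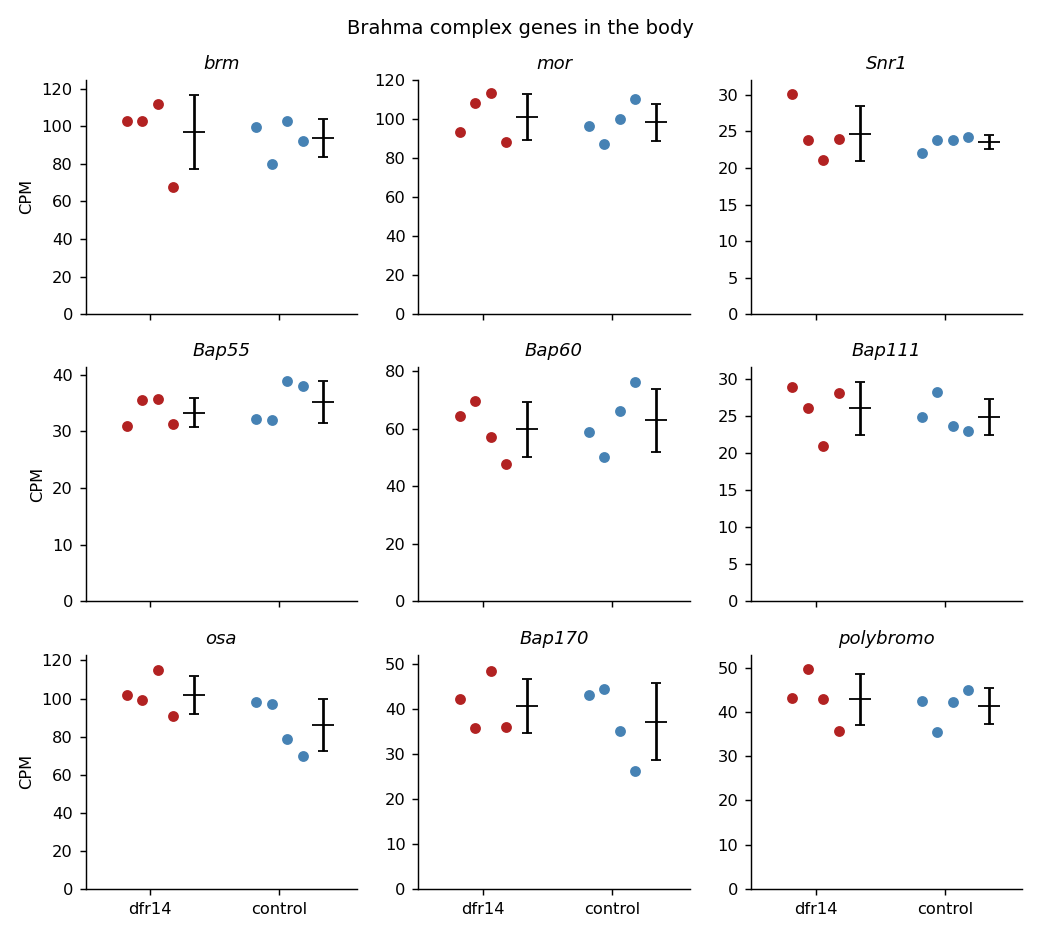
CPM of each member in the body, with *dfr14* libraries on the left and control libraries on the right of each panel. Points are single libraries in the order of the table, and the bar beside them is the mean with its SD (n = 4 per genotype). The genotypes overlap in all 9 panels.

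In the body *brm* had 103, 103, 112 and 67.9 CPM in *dfr14* and 99.8, 80.0, 103 and 92.2 CPM in control. Both the highest and the lowest library were *dfr14*, and the log2 fold change was 0.03 ± 0.18 (SE, adjusted p = 0.982). *Bap111* had 29, 26.1, 21.0 and 28.2 CPM in *dfr14* and 24.9, 28.3, 23.7 and 23.0 CPM in control, with *dfr14* library 3 lowest and library 1 highest. Its log2 fold change was 0.06 ± 0.14 (SE, 95% interval -0.28 to 0.39, adjusted p = 0.965). The largest value belonged to *osa*, with 102, 99.5, 115 and 91.0 CPM in *dfr14* and 98.3, 97.2, 79.0 and 70.0 CPM in control. The 2 lowest libraries of *osa* were controls, and the log2 fold change was 0.25 ± 0.14 (SE, 95% interval -0.07 to 0.58, adjusted p = 0.525).

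*Bap170* had 42.3, 35.8, 48.5 and 36.1 CPM in *dfr14* bodies and 43.2, 44.5, 35.0 and 26.2 CPM in control bodies, with the lowest value in the control library that stood apart. Its log2 fold change was 0.15, and -0.01 without that library. The other 5 (*mor*, *Snr1*, *Bap55*, *Bap60* and *polybromo*) had log2 fold changes of -0.07 to 0.06, which is 95 to 104% of control. Their adjusted p lay between 0.958 and 0.971 (limma). Without control library 4 the number of members called was again 0, *Bap60* was at 0.03, *osa* at 0.16, and the median of all genes at 0.02. The direction of most members depended on the scaling: with library size alone the median of all genes was -0.12, and *brm*, *mor*, *Snr1*, *Bap111*, *Bap170* and *polybromo* were negative as well.

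In the body *vvl* had 67.7, 75.0, 83.3 and 80.7 CPM in *dfr14* and 51.0, 49.3, 47.8 and 59.4 CPM in control, a log2 fold change of 0.56 (adjusted p = 0.0663). None of the 62 genes of the 5 lists of other chromatin regulators was called in this tissue by limma with its trend or with voom weights, and 6 had an unadjusted p under 0.05. Among the 62, the 7 further SWI/SNF subunits had log2 fold changes between -0.04 (*BCL7-like*) and 0.37 (*tth*). The same held for the 12 lists of markers and lineage genes, with 0 of 64 entries called by either fit and 7 at an unadjusted p under 0.05.

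**Figure D4:**
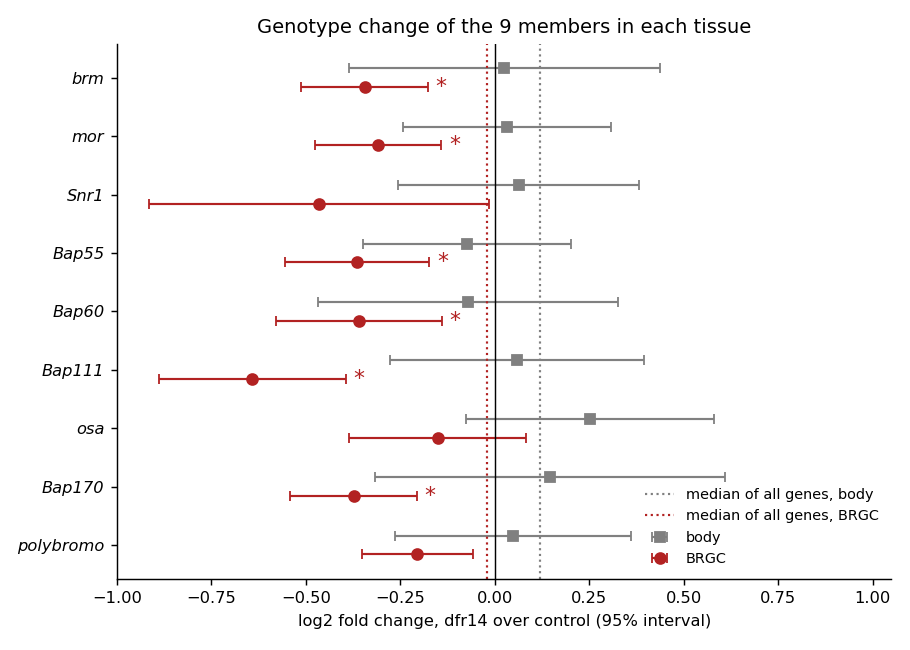
Log2 fold change of each member, *dfr14* over control, in the body (grey squares) and in the BRGC (red circles), with 95% intervals from limma. Asterisks mark an adjusted p under 0.05 over all genes of the table, and dotted lines mark the median of all genes in each tissue, 0.12 in the body and -0.02 in the BRGC. All 9 BRGC points are left of zero and 6 carry an asterisk, and no body point carries one.

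To set the tissues against each other, an interaction term (body minus BRGC) was fitted to the 9256 genes that both tables hold. The 2 tissues came from different larvae and their tables were scaled apart. The difference was positive for all 9 members, from 0.25 for *polybromo* to 0.70 for *Bap111*, and none passed (0 of 9 with the trend and 0 with voom weights, 4 with an unadjusted p under 0.05), while 1.29% of all genes passed in either direction. *Bap111* came closest, with a log2 fold change of 0.06 in the body and -0.64 in the BRGC, a difference of 0.70 ± 0.18 (SE, 95% interval 0.32 to 1.08, adjusted p = 0.0791). With library size alone the difference was 0.10 for *polybromo*, 0.13 for *Bap60*, 0.14 for *Bap55*, 0.19 for *mor*, 0.21 for *brm* and 0.55 for *Bap111*, with none called, and the median was 0.21 over the members (0.37 with TMM scaling) and -0.06 over all genes (0.10 with TMM scaling). With TMM scaling, for *Snr1* the difference was 0.53 ± 0.26, for *Bap170* 0.52 ± 0.21 and for *brm* 0.37 ± 0.19 (SE). Leaving out a single library added a call in 2 of 16 cases, *Bap111* without body *dfr14* library 3 (adjusted p = 0.0304) and *brm* without body *dfr14* library 4 (0.0489). The calls in the BRGC and their absence in the body are therefore not shown to differ between the tissues.

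**Figure D5:**
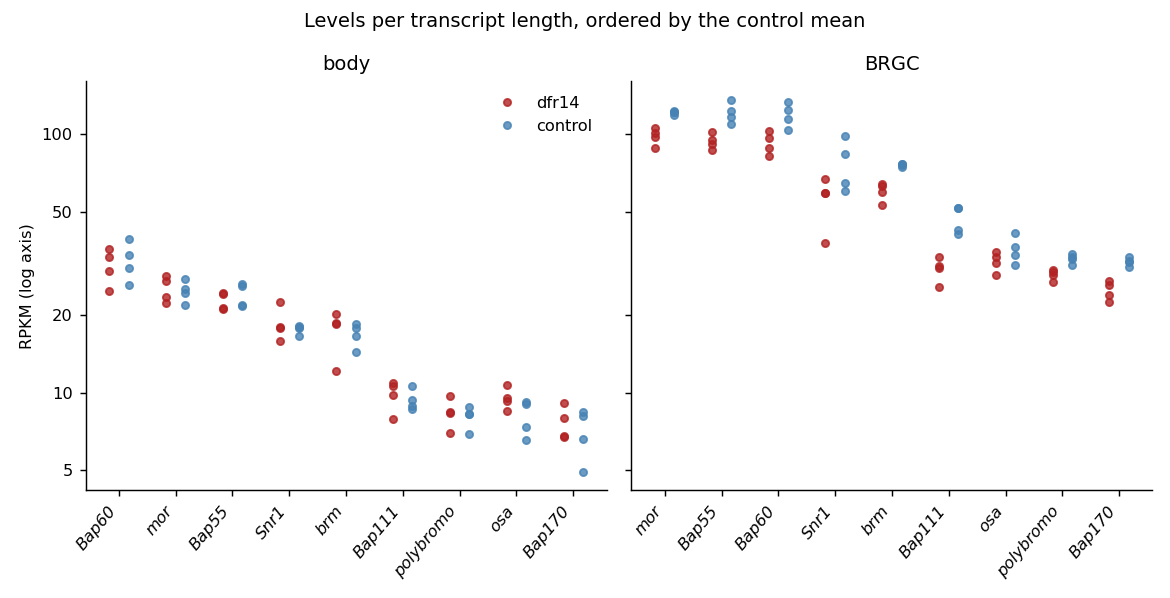
RPKM of each member in each library on a log axis, body on the left and BRGC on the right, *dfr14* in red and control in blue, ordered by the control mean of the tissue. The members fall into the same upper and lower groups in both tissues.

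Levels were compared between genes only per length, as reads per kilobase of exon and per 1000000 reads (RPKM). The length was again that of the joined exons of all annotated transcripts of a gene. In *dfr14* BRGCs *mor* (98.1 ± 7.56 RPKM, SD, n = 4), *Bap55* (93.7 ± 6.49) and *Bap60* (92.5 ± 8.97) were the highest, with overlapping ranges. *Brm* (60 ± 4.87 RPKM) and *Snr1* (55.8 ± 12.6) followed below a gap and overlapped each other. *Osa* (32.1 ± 2.85 RPKM), *Bap111* (30 ± 3.36), *polybromo* (28.6 ± 1.41) and *Bap170* (24.8 ± 2.08) formed the lower end, each overlapping the next. In control BRGCs the same 3 groups were separate, led by *mor* at 122 ± 1.73 RPKM, with *Snr1* (76.8 ± 17.6) and *brm* (76 ± 1) in the middle. The lower end ran from *Bap111* (46.9 ± 5.78 RPKM) through *osa* (35.8 ± 4.46) and *polybromo* (33 ± 1.37) to *Bap170* (32.1 ± 1.12), so *osa* stood above *Bap111* in *dfr14* and below it in control, though their ranges overlapped in both.

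The order was much alike in the body, at a lower level. *Bap60* led with 30.9 ± 4.92 RPKM in *dfr14* and 32.5 ± 5.65 RPKM in control, overlapping *mor* (25.3 ± 2.89 RPKM in *dfr14* and 24.7 ± 2.4 RPKM in control). *Bap55* came after *mor* in both genotypes (22.6 ± 1.76 RPKM in *dfr14* and 23.9 ± 2.52 RPKM in control), overlapping it, and its range met that of *Snr1* in *dfr14* but not in control. *Snr1* and *brm* followed, and in both genotypes a gap separated *brm* from *Bap111*, *osa*, *polybromo* and *Bap170*, which averaged 7.65 to 9.8 RPKM in *dfr14* and 7.0 to 9.35 RPKM in control. Set against the BRGC, the level of a member in the body was 24.1 to 33.4% in *dfr14* and 19.8 to 27.3% in control, and since the tables were normalized apart this was not tested. The fewest reads behind any member's value in a library were 421 in the body and 1321 in the BRGC, both for *Snr1*.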

How the data were processed

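Per the labels, the authors used Trim Galore for trimming, STAR for alignment and featureCounts for counting on BDGP6 (versions and strand setting are not given in the sources used here). The deposited log2 values are TMM-scaled CPM made by the authors with edgeR. The tables also hold the authors' fold changes, p-values and FDR, which were not used, nor were 16 further columns of values per sample. The group of each column was taken from the tables' own mean columns, and libraries are numbered by place in the table. Whole reads, recovered from the log2 values with a prior count of 2 (100.0% within 0.001 of a whole number), gave depth, CPM and RPKM. The tests were run on those log2 values in limma 3.58.1 (R 4.3.3) with a mean-variance trend, each tissue alone, and an interaction fit, with Benjamini-Hochberg adjustment over all genes and a threshold of 0.05. The fit was run on simulated data with changes larger than those of the members, which does not show its power at their size. Members and lists were chosen with earlier results of these data known. Of the other lists, the 3 called genes with the smallest p could be named; *Iswi*, *Set1*, *ham*, *pros* and further called markers were named after their values were seen. Alternatives were library size alone, RLE factors, totals without mitochondrial transcripts, a prior count of 0.5, a filter on low counts (10 reads in 4 libraries, 15 in total), voom weights, no trend, robust moderation, a *roX* covariate and leaving out each library. The precision of a value is limited by 4 libraries per group, with 17.1 to 30.1 M reads each. Positions come from the Ensembl release 115 annotation, and no sequences are shown.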

Additional observations from a re-analysis of the deposited data

How the results depend on the processing

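In the BRGC all 9 members stayed negative under every alternative. Of 81 fits of a member under 9 alternatives 73 kept their side of the threshold. The *roX* covariate ended the 6 calls (0 members lower, 169 genes called in all, 125 higher and 44 lower, against 980 and 574), no trend ended that of *Bap60* (adjusted p = 0.0598), and library size alone added *polybromo* and moved the split of all calls to 782 higher and 988 lower. Leaving out 1 library gave 3 to 6 members lower (3 without *dfr14* library 4) and 901 to 1613 genes called. In the body no alternative called a member, but 18 of 81 directions turned. With library size alone *brm* was at -0.215, *mor* at -0.208, *Snr1* at -0.176, *Bap111* at -0.181, *Bap170* at -0.094 and *polybromo* at -0.191, with 113 genes higher and 81 lower. With RLE factors *brm* was at -0.071, *mor* at -0.064, *Snr1* at -0.032, *Bap111* at -0.037 and *polybromo* at -0.047, and with the *roX* covariate *Bap60* was at 0.006. With totals without mitochondrial transcripts *brm* was at -0.154, *mor* at -0.147, *Snr1* at -0.115, *Bap111* at -0.120, *Bap170* at -0.033 and *polybromo* at -0.130. Leaving out 1 library gave -0.056 to 0.187 for *brm*, -0.026 to 0.092 for *mor*, -0.034 to 0.135 for *Snr1*, -0.172 to 0.034 for *Bap60*, -0.012 to 0.242 for *Bap170* and -0.026 to 0.134 for *polybromo*. Genes called in the body were 177, with 62 under voom weights, 483 with the covariate and 72 to 245 without 1 library. For the difference between tissues 119 genes were called, 58 with voom weights and 55 to 206 without 1 library, and 0 to 1 members. The cause of these shifts was not tested. No paired analysis was possible because the columns carry no replicate numbers. With 4 libraries a group and TMM scaling, the body interval held the BRGC value, taken without its own error, for 3 members. The difference between tissues, which takes both errors, was called for 0 of the 9.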
